A study of Mus musculus with 6 samples.

Results

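The CC chemokines are small secreted proteins that guide the migration of leukocytes through G-protein-coupled receptors of the Ccr family. In the thymus, some of them (Ccl25, Ccl19, Ccl21a) are made by epithelial cells and position thymocytes, whereas the inflammatory members are made mainly by macrophages, monocytes, dendritic cells and activated T or natural killer cells. The inflammatory members are encoded by neighbouring genes and share receptors: Ccl2, Ccl7 and Ccl12 act through Ccr2, Ccl3, Ccl5, Ccl6 and Ccl9 through Ccr1, and Ccl24 through Ccr3.

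Described here are 10 CC chemokine genes (Ccl2, Ccl3, Ccl4, Ccl5, Ccl6, Ccl7, Ccl8, Ccl9, Ccl12 and Ccl24) of 22180 genes measured. Each of the 10 had 1 probe set naming it alone, so no choice among probe sets was needed. They were chosen by family with their levels on these 6 arrays, and the difference between the groups, already in view. Levels and differences are therefore given as a description. Where a fit across all genes is cited for them, it gives a count from which nothing is read.

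RNA came from primary CD4+CD8+ double-positive thymocytes, immature thymic T cells with both coreceptors on their surface. The cells were taken from Ets1-/- mice (3 arrays) and from wild-type mice (3 arrays), all C57BL/6 and 5 to 6 weeks old. Ets1 is a lymphocyte transcription factor, and the comparison asks which transcripts depend on it at this stage. In both groups thymus cells were fixed with formaldehyde and then sorted with magnetic beads against CD8 and then CD4. The labels call cohorts of litter mates the biological replicates. The labels do not say whether an array held 1 animal or several, nor which exons of Ets1 are deleted.

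Signals are the deposited log2 values of the arrays, and a difference is the Ets1-/- mean minus the wild-type mean on that scale. Array medians were 3.66, 4.31 and 4.19 for Ets1-/- replicates 1 to 3 and 4.21, 4.25 and 4.33 for wild-type replicates 1 to 3, so Ets1-/- replicate 1 had the lowest median. The markers of double-positive thymocytes did not share this shift: the median of 10 such markers relative to the wild-type mean was -0.14, -0.13 and -0.18 on Ets1-/- replicates 1 to 3, where that of all genes was -0.59, 0.01 and -0.03. Across all genes the median difference was -0.22; centring each array on its own median brought it to -0.01. The median of all probe sets, averaged over the 6 arrays, was 4.13 and serves below as a mark of dim signal. Ets1 itself had 9.27, 9.22 and 8.79 on the Ets1-/- arrays and 9.11, 9.32 and 9.17 on the wild-type arrays. Its probe set does not separate the genotypes, and the part of the gene it covers is not given, so the signal does not check the labels, and every direction below is that of the arrays labelled Ets1-/-. Of 10 measured markers of double-positive thymocytes, Cd4, Cd8a and Cd8b1 among them, all were above 4.13 in both groups.

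Of the 10 chemokines, 8 were higher on every Ets1-/- array than on any wild-type array, and the other 2, Ccl4 and Ccl7, overlapped. Over all 22180 genes, 5.76% were separated upwards in this way and 21.9% in either direction. In a limma fit over all genes, 5 of the 10 (Ccl5, Ccl6, Ccl8, Ccl12 and Ccl24) were past an adjusted p of 0.05, all of them higher. That threshold was passed by 1.86% of all genes, and by 1.29% upwards. Without wild-type replicate 2 or without replicate 3, 3 of the 10 were past it (Ccl5, Ccl8 and Ccl24). Nothing is read from either count, because the family was chosen with this contrast known. The median difference of the 10 was 2.61, where that of all genes was -0.22. Signal in bulk RNA does not tell more cells of a type from more RNA per cell.

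**Figure D1:**
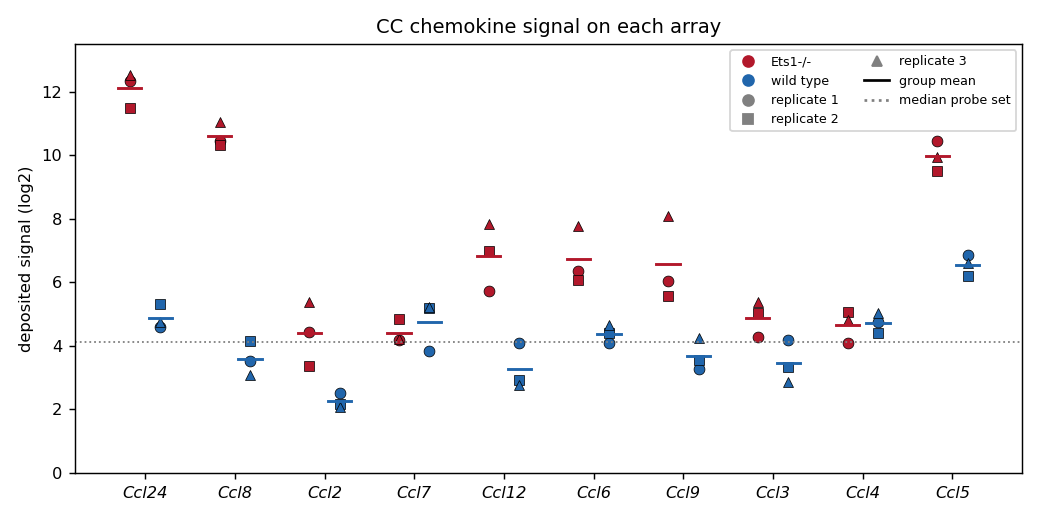
Deposited log2 signal of the 10 CC chemokines on each array. Red points are Ets1-/- arrays and blue points wild-type arrays, symbols give the replicate, short lines the group means, and the dotted line the median probe set at 4.13. Ccl24, Ccl8 and Ccl5 stand well apart in the 2 groups, whereas Ccl7 and Ccl4 overlap.

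Ccl24, or eotaxin-2, attracts eosinophils through Ccr3 and is made by macrophages that respond to type 2 cytokines. Its signal was 12.33, 11.48 and 12.52 on the Ets1-/- arrays, against 4.58, 5.31 and 4.74 on the wild-type arrays. The lowest Ets1-/- array stood 6.16 above the highest wild-type array. The means were 12.11 ± 0.56 in Ets1-/- and 4.88 ± 0.39 in wild type (SD, n = 3 each), a difference of 7.24 ± 0.35 (SE). This was the widest difference among the 10. Ccl24 lies on chromosome 5, next to Ccl26, another eotaxin gene, which had a difference of -0.28 ± 0.37 (SE; limma adjusted p = 0.756).

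Ccl8, a monocyte chemoattractant protein that acts on Ccr8 in the mouse, came close behind. Its signal was 10.44, 10.31 and 11.05 in Ets1-/-, against 3.53, 4.16 and 3.07 in wild type. The groups were 6.15 apart at their nearest arrays, and the difference of the means was 7.01 ± 0.34 (SE). In wild type the mean of 3.59 ± 0.55 (SD, n = 3) lay below the median probe set, and the difference shrank when low signals were damped. A pseudocount of 16 added on the linear scale gave 5.79 for Ccl8, and 6.61 for Ccl24.

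Ccl12, the neighbour of Ccl8 and a mouse ligand of Ccr2, was also higher by a wide margin, with more spread. It had 5.72, 6.98 and 7.82 on the Ets1-/- arrays and 4.08, 2.94 and 2.76 on the wild-type arrays. The difference was 3.58 ± 0.57 (SE), or 2.35 with the pseudocount. Ets1-/- replicate 1 was the lowest of its group and still 1.64 above the highest wild-type array.

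Ccl2, the main attractant of monocytes, was dim in wild type and near the median probe set in Ets1-/-. It had 4.45, 3.36 and 5.37 in Ets1-/- and 2.50, 2.18 and 2.07 in wild type, a difference of 2.15 ± 0.47 (SE). The groups did not overlap, but the lowest Ets1-/- array was itself below the median probe set. With the pseudocount the difference of Ccl2 was 0.89.

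Ccl7, which also attracts monocytes through Ccr2, did not follow Ccl2, Ccl8 and Ccl12. Its signal was 4.17, 4.85 and 4.23 in Ets1-/- and 3.84, 5.19 and 5.23 in wild type. The ranges overlapped, and the difference was -0.34 ± 0.42 (SE; 95% interval -1.30 to 0.63). It rests on single arrays: without wild-type replicate 1 it was -0.79 and the ranges no longer overlapped, and without replicate 3 it was -0.10.

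The promoter sequences of Ccl8 and Ccl12 are shown because these neighbours had, in the deposited values, the widest differences of the 9 described chemokines on chromosome 11. They are the 250 bases before the annotated start, 5′ to 3′ on the gene's strand, from RefSeq on GRCm38.p6. Both genes lie on the plus strand, Ccl8 with chr11:82114935-82115184 and Ccl12 with chr11:82101595-82101844. Capitals mark matches to the searched motifs, here TATAAA at position -32 for Ccl8 and -31 for Ccl12, counted from the start.
Ccl8: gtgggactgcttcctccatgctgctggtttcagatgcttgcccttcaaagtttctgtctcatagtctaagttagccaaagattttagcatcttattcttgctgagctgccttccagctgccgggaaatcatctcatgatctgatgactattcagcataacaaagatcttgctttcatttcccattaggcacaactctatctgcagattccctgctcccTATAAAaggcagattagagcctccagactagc
Ccl12: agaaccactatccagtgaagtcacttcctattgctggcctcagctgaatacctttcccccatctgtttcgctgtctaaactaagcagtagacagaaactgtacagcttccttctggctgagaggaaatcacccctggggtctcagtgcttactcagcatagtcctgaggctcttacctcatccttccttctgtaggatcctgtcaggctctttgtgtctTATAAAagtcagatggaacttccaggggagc

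TATAAA or its reverse complement was present in 13.6% of all 32851 promoter windows of the same 300 bases (250 before to 50 after the start). The letters CCGGAA, 1 form of the site of ETS factors, were in none of the 5 windows searched among the chemokines (Ccl3, Ccl6, Ccl8, Ccl9 and Ccl12), and in 14.9% of all windows. Likewise TTCNNNGAA (STAT) and the interferon response motif (GAAA, any 2 bases, GAAA) had 0 matches in these 5 and were in 8.30% and 3.44% of all windows. The shorter GGAA shared by most ETS sites was not searched. Such a count says only that these letters are not in this stretch. Windows of Ccl2, Ccl4, Ccl5, Ccl7 and Ccl24 were not analysed here.

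Ccl6 and Ccl9 are ligands of Ccr1 made by myeloid cells of rodents, and their genes lie close together on chromosome 11. Ccl6 had 6.36, 6.06 and 7.77 on the Ets1-/- arrays and 4.09, 4.41 and 4.65 on the wild-type arrays. The difference was 2.35 ± 0.44 (SE), and the nearest arrays of the groups were 1.41 apart. Ccl9 had 6.05, 5.57 and 8.09 in Ets1-/- and 3.28, 3.55 and 4.25 in wild type, a difference of 2.88 ± 0.62 (SE). Both were highest on Ets1-/- replicate 3 and lowest of that group on replicate 2. Relative to the wild-type mean, replicate 3 stood at 3.39 for Ccl6 and 4.40 for Ccl9, while replicate 2 stood at 1.68 and 1.88.

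The sequences before the starts of this pair are shown because their signals moved alike across the arrays, as described further on. Both lie on the minus strand of chromosome 11 on GRCm38.p6, Ccl9 with chr11:83578637-83578886 and Ccl6 with chr11:83593088-83593337. In Ccl9 capitals mark TTTATA at -224, TATAAA on both strands from -94, TGAATCA at -53 (AP-1, TGANTCA) and GGAAAGCCCC at -35 (NF-kB, GGG and CC with any 5 bases between, on the other strand).
Ccl9: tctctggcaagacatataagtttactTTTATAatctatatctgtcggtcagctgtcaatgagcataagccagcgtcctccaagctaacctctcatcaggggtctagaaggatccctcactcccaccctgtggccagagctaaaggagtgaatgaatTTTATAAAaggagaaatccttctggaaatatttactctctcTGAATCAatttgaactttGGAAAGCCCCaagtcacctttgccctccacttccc
Ccl6: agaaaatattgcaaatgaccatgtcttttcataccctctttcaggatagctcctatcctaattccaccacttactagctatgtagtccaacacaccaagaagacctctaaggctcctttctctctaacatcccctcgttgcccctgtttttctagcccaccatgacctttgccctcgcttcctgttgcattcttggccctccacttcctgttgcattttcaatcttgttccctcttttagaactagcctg

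The AP-1 letters were in 7.81% of all promoter windows and the NF-kB letters in 50.8%, and Ccl9 was the 1 chemokine window of 5 with either. Ccl6 and Ccl3 held none of the 6 motifs searched.

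Ccl5, or RANTES, is made by memory and cytotoxic T cells and natural killer cells as well as by macrophages, and attracts cells through Ccr1 and Ccr3, among others. It had 10.45, 9.50 and 9.94 in Ets1-/- and 6.86, 6.19 and 6.62 in wild type. Signal was thus well above the median probe set in both groups. The groups were 2.64 apart at their nearest arrays, and the difference was 3.41 ± 0.32 (SE), which the pseudocount left at 3.20.

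Ccl3 and Ccl4, the macrophage inflammatory proteins 1-alpha and 1-beta, are adjacent genes, often co-induced in activated cells. Ccl3 had 4.27, 5.03 and 5.37 in Ets1-/- and 4.17, 3.34 and 2.85 in wild type, a difference of 1.44 ± 0.41 (SE), or 0.75 with the pseudocount. Only 0.11 separated the lowest Ets1-/- array from the highest wild-type array. Ccl4 had 4.08, 5.05 and 4.82 in Ets1-/- and 4.74, 4.39 and 5.02 in wild type. The ranges of Ccl4 overlapped, and its difference of -0.06 ± 0.32 (SE; 95% interval -0.81 to 0.68) became 0.15 when arrays were centred on their medians.

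**Figure D2:**
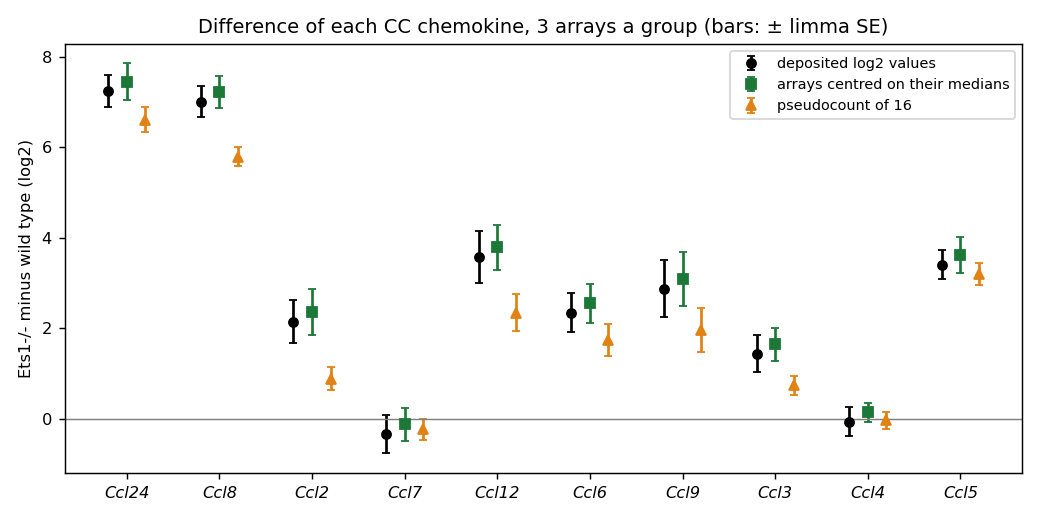
Difference in log2 signal, Ets1-/- minus wild type, for each CC chemokine (3 arrays a group, bars ± limma SE) from the deposited values, after centring arrays on their medians and with a pseudocount of 16. Centring shifts all 10 upwards by about the same amount, while the pseudocount shortens the differences of chemokines that are dim in wild type, such as Ccl2 (2.15 and 0.89).

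In the deposited values, the Ets1-/- arrays did not carry the chemokines in equal measure. Among the 8 that did not overlap, 7 were highest on Ets1-/- replicate 3 and 1, Ccl5, on replicate 1. The lowest of the 3 was replicate 2 for 6 of the 8 and replicate 1 for the other 2, Ccl3 and Ccl12. Over all 10 genes, the median signal above the wild-type mean was 2.28, 1.78 and 3.39 on Ets1-/- replicates 1 to 3, and between -0.09 and -0.02 on the wild-type arrays. All genes stood at -0.59, 0.01 and -0.03 on the same Ets1-/- arrays. The ranks above are not corrected for that shift, so the place of replicate 1 in them is uncertain.

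Likeness of pattern was measured as the root mean square difference between profiles over the 6 arrays, each profile minus its own mean, over 19234 genes. Both groups enter this measure, so genes with a similar difference between the groups come first. Ccl8 and Ccl24 were each other's nearest gene, at 0.31. After Ccl8, the nearest to Ccl24 were Retnla (0.50), a secreted marker of alternative macrophage activation, and the ribonuclease Rnase2a (0.52). After Ccl24, the nearest to Ccl8 were the immunoglobulin segment Iglv1 (0.49) and the actin-binding protein Cnn1 (0.52).

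Ccl6 was the gene nearest to Ccl9 (0.39), followed by Ifitm2 (0.41) and the B-cell coactivator Pou2af1 (0.47), whereas the nearest to Ccl6 was the inhibitory Fc receptor Fcgr2b (0.27), then Ociad2 and Actg2 (0.28 each). Ccl5 stood nearest to Plac8 (0.22), Nkg7 (0.29), a granule protein of cytotoxic cells, and Cd7 (0.30), a surface protein of T and natural killer cells. Nkg7 had 8.53, 7.64 and 8.25 in Ets1-/- and 4.75, 4.99 and 4.98 in wild type, with the same order of the Ets1-/- arrays as Ccl5. For Ccl12 the nearest were Sertad4 (0.18), Klk1 and Evi5 (0.37 each), for Ccl3 Plekha2 (0.11), Zfp608 and Slfn1 (0.20 each), and for Ccl2 Ebf1 (0.29), Actg2 (0.30) and Bhlhe41 (0.33).

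In the gene order of RefSeq on GRCm38.p6, 9 of the 10 chemokines lie on chromosome 11 in 2 stretches and Ccl24 on chromosome 5. Within 4 places on either side of the members there were 30 other genes, of which 10 were measured. Of all 22180 genes, 2918 had an unadjusted limma p under 0.05. Of the 10 measured neighbours, 0 passed the limma test and 0 had such a p-value. Their differences ran between -0.49 and 0.10. In the first stretch Ccl7 (-0.34) and Ccl11 (-0.05 ± 0.42, SE), an eotaxin, lie between Ccl2 (2.15) and Ccl12 (3.58), and Ccl1 (-0.44 ± 0.32, SE), a ligand of Ccr8, follows Ccl8 (7.01). In the other stretch Ccl5 (3.41), Ccl9 (2.88), Ccl6 (2.35), Ccl3 (1.44) and Ccl4 (-0.06) follow each other, and the transcript E230016K23Rik between Ccl9 and Ccl6 had -0.36 ± 0.20 (SE; limma adjusted p = 0.509). In both stretches, genes with small differences thus lay between or beside members that were high. The sign of these small differences is not read, since the median difference of all genes was -0.22. Ccl11 and Ccl4 were at 0.16 and 0.15 with arrays centred on their medians.

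**Figure D3:**
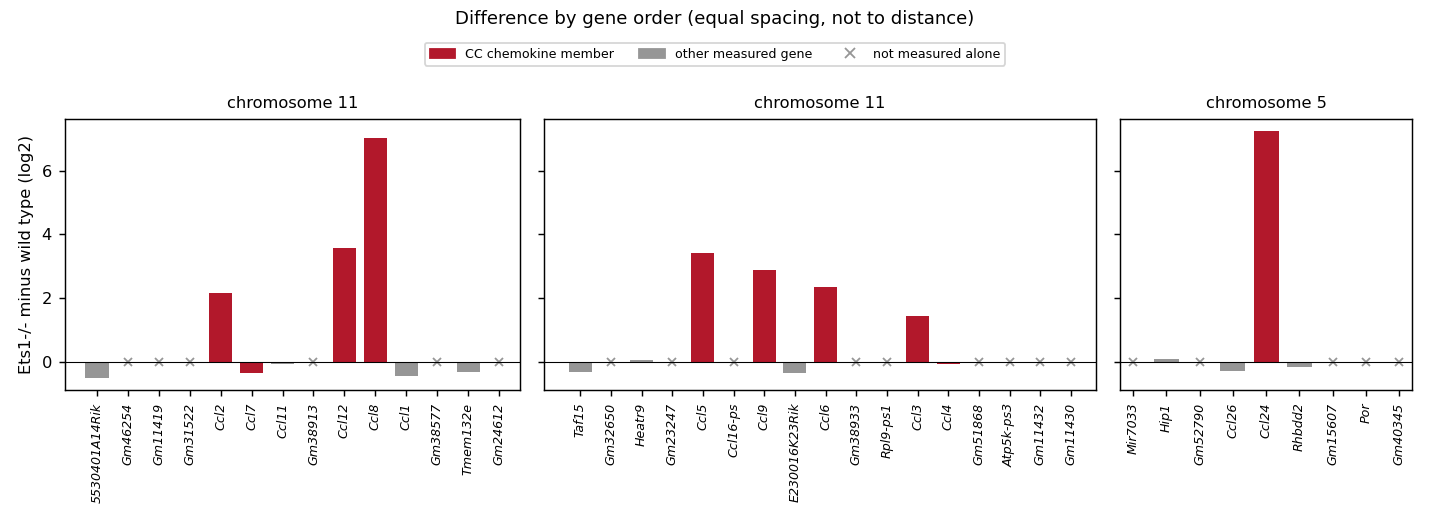
Differences in log2 signal, Ets1-/- minus wild type, by gene order around the CC chemokines in the RefSeq annotation, in 2 stretches of chromosome 11 and 1 of chromosome 5, with genes at equal spacing. Red bars are the 10 chemokines, grey bars the other measured genes, which lie between -0.49 and 0.10, and crosses mark genes with no probe set naming them alone.

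The rest of the family showed no call. Of 14 other CC chemokines listed, 9 were measured, and 0 rose and 0 fell by the limma test. Against 2918 of all 22180 genes, 1 of the 9 had an unadjusted limma p under 0.05. Of these 9, 0 had groups that did not overlap. Their median difference was -0.21, where that of all genes was -0.22. The smallest p belonged to Ccl17 and Ccl22, ligands of Ccr4 made by dendritic cells. Ccl17 had 4.50, 5.88 and 5.95 in Ets1-/- and 3.32, 5.06 and 4.17 in wild type (1.26 ± 0.54, SE; adjusted p = 0.372). Ccl22 had 5.63, 7.66 and 6.50 in Ets1-/- and 3.25, 6.36 and 5.50 in wild type (1.56 ± 0.81, SE; adjusted p = 0.479). Ccl25, the thymic epithelial ligand of Ccr9, was at -0.21 ± 0.26 (SE; adjusted p = 0.741), and Ccl20 at -0.45 ± 0.32 (adjusted p = 0.588). No probe set named Ccl19, Ccl21a, Ccl21b, Ccl21c or Ccl27b alone.

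Among 14 measured receptors and scavenging receptors for CC chemokines, 1 rose and 0 fell, with a median difference of 0.18. Ccr10, a homing receptor of plasma cells and of T cells of the skin, had 4.95, 6.06 and 6.39 in Ets1-/- and 2.90, 2.37 and 3.05 in wild type. It rose by 3.03 ± 0.40 (SE; limma adjusted p = 0.0101), and the adjusted p was 0.0541 without Ets1-/- replicate 2. With the pseudocount of 16 the difference was 1.67. Ccr2, the receptor of Ccl2, Ccl7 and Ccl12 on monocytes, had 5.73, 5.60 and 6.12 in Ets1-/- and 3.85, 4.81 and 3.65 in wild type. Its groups did not overlap, but its difference of 1.71 ± 0.35 (SE) missed the threshold (adjusted p = 0.0586). It was called in 7 of 14 alternative settings, among them the pseudocount of 16 (adjusted p = 0.0181) and the omission of wild-type replicate 2 (adjusted p = 0.0275), with adjusted p between 0.00367 and 0.189 over all 14.

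The receptors of the other higher chemokines were dim where measured. Ccr1 had a difference of 0.38 ± 0.35, Ccr3 of 0.22 ± 0.39 and Ccr8 of -0.22 ± 0.26 (SE; limma adjusted p of 0.659, 0.816 and 0.724), with means of 3.77, 3.83 and 3.54 in Ets1-/- and 3.39, 3.61 and 3.77 in wild type, below the median probe set. Ccr9 and Ccr7, which guide thymocytes, were at -0.03 ± 0.21 and -0.07 ± 0.27 (SE; adjusted p of 0.966 and 0.924), and at 0.19 and 0.14 with arrays centred. Ccr4 was at -1.29 ± 0.53 (adjusted p = 0.357) and the scavenger Ackr4 at 0.95 ± 0.36 (adjusted p = 0.311).

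The CXC chemokines, the sister family with a residue between the first cysteines, were changed in part. Of 15 measured, 4 rose and 0 fell, with a median difference of -0.22. Pf4, a product of platelets that macrophages also make, rose by 4.48 ± 0.51 (SE; limma adjusted p = 0.00502), Cxcl10, an interferon-induced ligand of Cxcr3, by 2.84 ± 0.31 (adjusted p = 0.00406), and Cxcl16, a membrane-bound chemokine of macrophages and dendritic cells, by 2.76 ± 0.40 (adjusted p = 0.0145). Cxcl9, another ligand of Cxcr3, lay at the threshold (1.97 ± 0.38, SE; adjusted p = 0.05). Pf4 and Cxcl10 had wild-type means of 1.17 and 1.79, far below the median probe set, and their differences were 1.86 and 1.07 with the pseudocount of 16. With any 1 of the Ets1-/- arrays left out, 2 of the 15 were called. A difference between the families was not tested.

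Cytokines and factors known to induce CC chemokines were called in 1 case. Of 12 such cytokines, 0 rose and 0 fell (3 had an unadjusted limma p under 0.05, as did 2918 of all 22180 genes). Il10, with 7.17, 5.49 and 5.41 in Ets1-/- and 4.00, 4.35 and 4.47 in wild type, and Il13, with 5.11, 5.96 and 7.24 in Ets1-/- and 4.26, 4.23 and 4.74 in wild type, did not overlap between the groups but missed the threshold (adjusted p of 0.141 and 0.186). Il1b, the third of the 12 that did not overlap, was at 1.57 ± 0.57 (SE). Its limma adjusted p was 0.287, and 0.00956 without Ets1-/- replicate 1. Only 0.05 separated its lowest Ets1-/- array from its highest wild-type array. Of all genes, 5.76% were separated upwards. Tnf was at -0.53 ± 0.48 (SE), with a limma adjusted p of 0.657. Among 13 measured signalling and transcription factors, Spi1 (PU.1), the ETS factor of myeloid and B cells, rose by 3.17 ± 0.41 (SE; adjusted p = 0.00889), or 1.91 with the pseudocount. Irf7, Cebpb and Stat3 had 1.96, 0.73 and 0.74 (adjusted p of 0.0732, 0.193 and 0.235).

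Markers of some other cell types were also higher in Ets1-/-. Of 16 measured macrophage and monocyte markers, 12 rose and 0 fell, with a median difference of 2.78, and their summed linear signal was 4500 to 6010 on the Ets1-/- arrays against 881 to 1080 on the wild-type arrays. Of all genes, 1.29% rose by the limma test. Ctss, Csf1r, C1qa and Mpeg1 rose by 2.78, 3.31, 2.85 and 3.05 (limma adjusted p of 0.00197, 0.0014, 0.00232 and 0.00244). Cd14 and Cx3cr1 were at 0.13 and 0.28 with overlapping groups (limma adjusted p of 0.857 and 0.684). Mertk at 1.48 and Ly6c2 at 8.62 (3.01 with the pseudocount of 16) missed the threshold (limma adjusted p of 0.0746 and 0.158). The median of these 16 markers above the wild-type mean was 2.58, 2.59 and 2.86 on Ets1-/- replicates 1 to 3, and that of the 10 chemokines was 2.28, 1.78 and 3.39. Markers of alternatively activated macrophages had 1.06, 0.73 and 1.72. Those of dendritic cells had 0.86, 1.51 and 1.17, and those of B cells 1.87, 2.34 and 2.76. Markers of natural killer and cytotoxic T cells had 1.27, 0.49 and 0.73. All genes stood at -0.59, 0.01 and -0.03 on the same arrays, which were not centred here, so the order of the arrays is not read. Whether these patterns differ was not tested.

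Of 10 markers of alternatively activated macrophages, 3 rose (Retnla, Mrc1 and Chil3, by 7.22, 2.83 and 4.38) and 0 fell, and the sum was 1270 to 2500 in Ets1-/- against 169 to 196 in wild type. Retnla made most of the Ets1-/- sum, with log2 signals of 10.34, 9.86 and 10.84. Lyve1 was lower on every Ets1-/- array, with a difference of -0.35. Arg1 was at 1.99 ± 0.49 (SE; limma adjusted p = 0.111), while Chil3, with a wild-type mean of 0.95, had 1.69 with the pseudocount and Cd163, Folr2 and Mgl2 were at 0.16, 0.00 and -0.01. Of 12 dendritic-cell markers, 6 rose and 0 fell (sum 3510 to 3750 in Ets1-/-, 565 to 666 in wild type), among them Irf8 by 2.51 and, of MHC class II, H2-Aa by 3.48, H2-Ab1 by 3.65 and H2-Eb1 by 4.11. Of 11 B-cell markers, 5 rose and 0 fell (441 to 938 in Ets1-/-, 112 to 135 in wild type), among them Cd79a by 4.20 and Ms4a1 by 6.14. Both were dim in wild type (means of 2.60 and 0.04), and with the pseudocount they differed by 2.51 and 2.39. Cd79b, Cd22, Blnk, Fcmr and Pax5 were higher but missed the threshold (limma adjusted p between 0.0511 and 0.149). Cr2 was at -0.32 with overlapping groups. Over all genes, 1.29% rose and 0.568% fell by this test. Of 11 markers of natural killer and cytotoxic T cells, Gzmb and Nkg7 rose by 4.53 and 3.23 and 0 fell (764 to 1260 in Ets1-/-, 258 to 418 in wild type), where Gzmb was at 2.56 with the pseudocount. The dendritic-cell markers Flt3, Zbtb46, Batf3 and Xcr1 had 0.03, -0.38, -0.25 and -1.15 and missed the adjusted threshold (for Xcr1 the 95% interval was -2.08 to -0.23 and the adjusted p 0.266). Of the 11 natural killer and cytotoxic T-cell markers, 5 were higher and 2 lower on every Ets1-/- array, against 5.76% and 16.1% of all genes. The 2 lower were Prf1 at -0.56 (95% interval -1.1 to -0.02, limma adjusted p = 0.354) and Ncr1 at -0.55. Klrb1c was at -0.49.

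Markers of neutrophils (10 measured), eosinophils and mast cells (10) and thymic epithelium and stroma (11) had 0 members past the limma test in either direction. Means of 10, 7 and 6 of them lay below the median probe set in Ets1-/-, and of 8, 6 and 5 in wild type. At such dim signal a lack of calls says little. An unadjusted limma p under 0.05 was held by 2918 of all 22180 genes and by 1, 2 and 1 of these markers. The list sums were 76.4 to 110.0, 106 to 183 and 167 to 268 in Ets1-/- and 87.7 to 147, 145 to 165 and 336 to 450 in wild type. Pecam1 was the largest part of the last sum, with log2 signals of 5.92, 6.59 and 6.77 in Ets1-/- and 7.42, 7.61 and 8.01 in wild type. Its difference was -1.26 (95% interval -1.96 to -0.56, limma adjusted p = 0.1). The eosinophil markers Epx and Siglecf, of cells that respond to Ccl24, were at -0.74 and -0.30 (adjusted p of 0.192 and 0.68), and Prg2, the major basic protein, was at 2.50 (adjusted p = 0.161), or 0.41 with the pseudocount. Of the 10 double-positive thymocyte markers 1, Tdrd5, fell and 0 rose, with a sum of 13400 to 14100 in Ets1-/- against 15700 to 16400 in wild type. The part of these cell types in the chemokine signal was not tested.

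**Figure D4:**
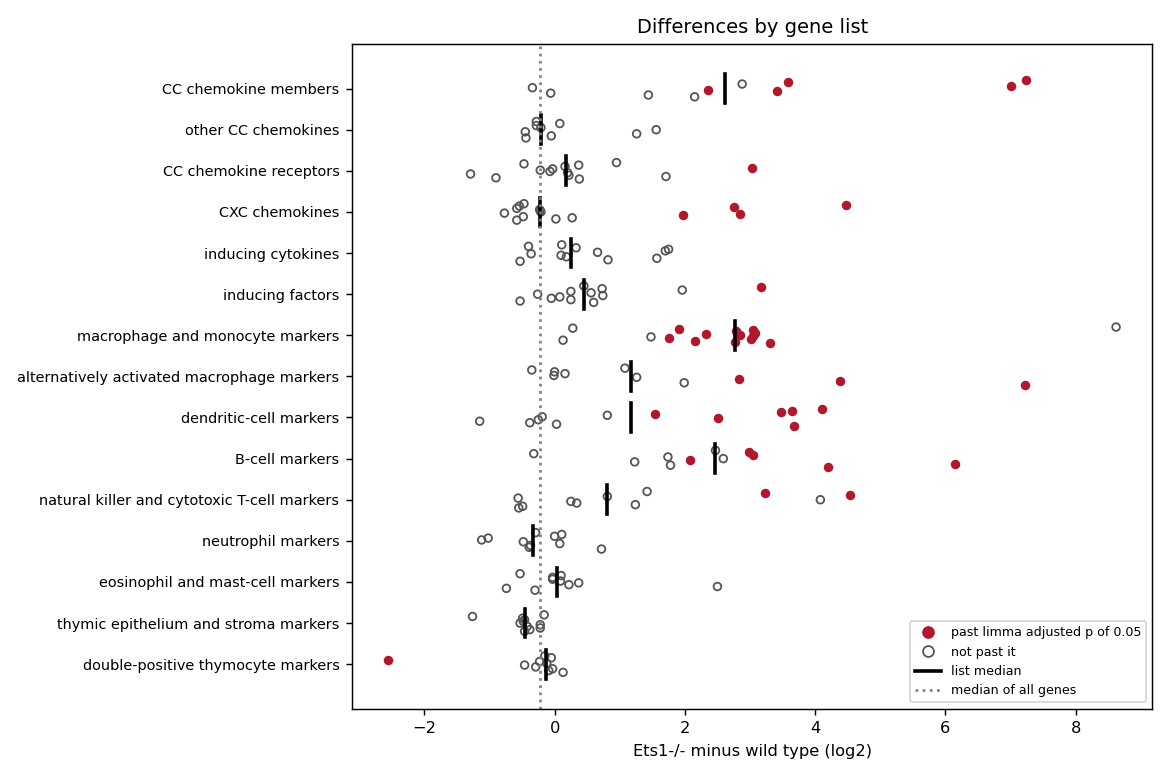
Differences in log2 signal, Ets1-/- minus wild type, for the genes of each list, where filled points passed a limma adjusted p of 0.05, thick lines are list medians and the dotted line is the median of all genes (-0.22). The 10 chemokines reach from -0.34 to 7.24, and the macrophage and monocyte markers lie at a median of 2.78, while the other CC chemokines sit around the median of all genes.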

How the data were processed

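RNA of 3 Ets1-/- and 3 wild-type samples was labelled with biotin and hybridised to single-channel Affymetrix arrays, per the labels' protocols. The deposited table holds log2 values of 41345 probe sets, from -15.86 to 16.36, and this scale was inferred from their range. The submitters' processing notes name affy. How background and normalization were handled, and on which build, is not stated there. The number of arrays limits the precision.

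Probe sets were named by the platform annotation (23521 named 1 gene, 1814 several, 16010 were unnamed) and 23328 matched to RefSeq by gene identifier. The brightest probe set over all arrays stood for a gene, without a filter on dim probe sets. A two-sided limma model without covariates (version 3.58.1, R version 4.3.3; lmFit, then eBayes) was fitted to the deposited log2 values of 22180 genes, with Benjamini-Hochberg adjustment and a threshold of 0.05. SE is limma's moderated standard error and SD that of the 3 arrays. P-values cover only the spread between these samples. In 10 simulated runs over 22180 genes with the spreads of this comparison (Ets1-/- minus wild type), the fit recovered 63.3% of genes given a log2 change of 2 and 93.8% of those given 4, with 200 genes altered per run. Summaries used Python 3.11.15, pandas 2.3.3, numpy 2.4.6, scipy 1.17.1 and matplotlib 3.10.9.

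The members, lists, tests and alternatives were chosen with earlier results of these data known. All 10 members, Ets1, called genes and the 4 smallest p of the other chemokines, receptors and neighbours, up to 4 of every other list, and the 3 nearest genes of each separated member are named; further list genes were added after their values were seen. Same-numbered arrays of the groups deviated from their group means with correlations of -0.07, -0.01 and -0.05, so the numbers were not taken as pairs.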

Additional observations from a re-analysis of the deposited data

How the results depend on the processing

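The 3 arrays a group, the lower median of Ets1-/- replicate 1 and the low signals limit the values. In 14 alternative settings Ccl5, Ccl8 and Ccl24 were past the threshold each time, Ccl6 and Ccl12 in 9, Ccl9 in 6, Ccl2 in 2 of 13, Ccl3 in 2, and Ccl4 and Ccl7 in 0; Ccl4 lay above 0 in 5. With any 1 array left out, 3 to 4 chemokines were past the threshold (3 without wild-type replicate 2 or 3, where Ccl6 and Ccl12 were lost), and with an intensity trend and robust prior 8. Receptors called were 2 with a filter at the median probe set, quantile-normalized arrays, centring on medians, the pseudocount of 16, the intensity trend or array weights, and 0 to 2 with any 1 array left out. CXC chemokines called were 2 with the filter and 2 to 4 with any 1 array left out. Regulating cytokines and factors called were 2 with the filter or centring and 3 with quantile normalization or the pseudocount. They were 5 with the trend, 7 with array weights, and 1 to 2 with any 1 array left out. Over all genes 413 were called (287 higher, 126 lower), against 798 with quantile normalization (513 and 285), 745 with centring (545 and 200), 907 with the pseudocount (484 and 423), 1172 with the trend (618 and 554), 1019 with array weights (625 and 394), and 190 to 379 with any 1 array left out. Why the counts moved was not tested. With the replicate number as a block, 5 chemokines were past the threshold (Ccl9 in place of Ccl12). So were 1 receptor, 4 CXC chemokines, 1 regulating factor and 311 of all genes. The counts for other CC chemokines, neighbours and macrophage markers did not move with this block.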
